A study of Rattus norvegicus with 6 samples.

Results

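The ADAMTS proteinases (a disintegrin and metalloproteinase with thrombospondin motifs) were followed through their RNA in rat chondrocytes. The 10 genes were chosen by name, as the aggrecanases and related proteinases Adamts1, Adamts2, Adamts4, Adamts5, Adamts6, Adamts7, Adamts9, Adamts10, Adamts12 and Adamts15, and 10 of 10 were found among the 18420 genes of the deposited table. The samples were 6 RNA-seq libraries of primary chondrocytes of wild-type male Sprague-Dawley rats. In the TNF-α group (n = 3), cells received 10 ng/mL TNF-α and were harvested at 6 h. In the TNF-α+NFL group (n = 3), the same 6 h of TNF-α were followed by 24 h with NFL, a freeze–thaw lysate of Nanofat, an adipose preparation that holds stromal and vascular cells, and the labels give 30 h as the time. Both groups thus carried TNF-α, and an untreated group was not analysed here. NFL and the time of harvest differed together between the groups and cannot be told apart. The cells were used at passage 3, and the replicates are described as independent, but no source used here says whether they came from separate rats.

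Aggrecan is the large proteoglycan that lets cartilage hold water, and aggrecanases are the secreted zinc proteinases that cut its core protein. Adamts4 and Adamts5 are regarded as the main aggrecanases of joint cartilage, and inflammatory cytokines such as TNF-α and interleukin-1 are known to drive aggrecan loss through them. Relatives cut other matrix proteins: versican, cartilage oligomeric matrix protein (COMP), the propeptides of fibrillar collagens, or partners of the fibrillin microfibrils. They are made as precursors, most of which furin-type convertases trim, and the main aggrecanases can be blocked by TIMP3 and taken up by the receptor LRP1.

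None of the 10 genes passed the test between the labelled groups. edgeR's quasi-likelihood test called 0 of 10 at an adjusted p of 0.05, beside 0.611% of the 13250 genes tested. The TNF-α+NFL label went with higher values in 0.408% and with lower values in 0.204%. DESeq2, limma-voom and limma on log2(FPKM + 1) also called 0 of 10. At an unadjusted p under 0.05, edgeR gave 2 of 10, Adamts1 and Adamts6, beside 11.1% of all genes. At the same threshold the DESeq2 Wald test gave Adamts5, Adamts6 and Adamts12, beside 786 of 13250 genes. There, limma on log2(FPKM + 1) gave Adamts6 and Adamts7, beside 1289 of 13250. The log2 fold change fitted in edgeR was above 0 in 5 of 10, beside 48.2% of all genes. It ran from -0.24 for Adamts9 to 0.19 for Adamts6, with a median of 0.014 against -0.0035 over all genes. All 10 passed the filter on low counts.

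Every direction follows the deposited group labels. A supplementary table gives ratios to the untreated group, and the difference between the treated groups could be compared for 3291 genes. It ran opposite to the direction under these labels in 95.59% of those genes (Pearson r = -0.9994). Of the ADAMTS genes followed, 7 were compared, and 7 of 7 had the opposite sign. Which libraries belong to which treatment was therefore not settled here. The study's measurements other than RNA-seq were not used to settle it. The word "labelled" is used for that reason.

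The libraries were similar in depth, with 19344893 to 19725135 estimated counts each, but TNF-α replicates 1 and 3 stood apart, on opposite sides of the other 4. Over all genes, the first principal component (29.1% of the variance) placed them at -11.3 and 16.3, with the other 4 between -5.78 and 5.105. The second component separated the labelled groups. It placed TNF-α replicates 1 to 3 at 12.77, 5.646 and 2.801, and the TNF-α+NFL replicates at -7.893, -6.688 and -6.637. For the 10 genes it was TNF-α replicate 1 that stood out. It held the highest normalized count (CPM, the count scaled to library size after TMM normalization) for 7 of the 10 genes, where 21.3% of all tested genes peaked in that library. The 10 genes lay a median of 0.14 on the log2 scale above the mean of the other libraries there, against 0.0017 for all genes. Some macrophage markers also had their highest counts in it: Csf1r had 40 estimated counts against 1 to 7 in the other libraries, and Ptprc had 7 against 0 to 2. Lyz2 was found in TNF-α replicate 1 at 14.95 estimated counts and was at 0 in the other 5, and the shared lysosomal marker Cd68 was at 387 to 502 in all 6. The summed FPKM of the 4 macrophage genes analysed, out of 6 listed, was 19.02 to 22.7 in the TNF-α group and 16.8 to 21.7 in the TNF-α+NFL group. The part of these cells in the results was not tested. The cells had weak RNA for several defining cartilage genes: over the 6 libraries the mean FPKM was 4.29 for Col2a1, 2.69 for Acan and 2.295 for Sox9, Cnmd was near 0, and Col1a1 was at 640. Of the same 10 chondrocyte markers, Col11a1 at 233 and Prg4 at 557 were high, and the other 4 lay between 0.455 and 4.37. The groups did not overlap for 3 of the 9 chondrocyte markers tested, beside 16.8% of all genes, and each was higher with the TNF-α+NFL label, beside 8.66%: Col9a1 at a log2 fold change of 0.41 (adjusted p = 0.49), Col2a1 at 0.23 (adjusted p = 0.22) and Col11a1 at 0.22 (adjusted p = 0.052). The fibroblast marker Thy1, at 0.095 (adjusted p = 0.33), did not overlap either, and Col11a1 was called without TNF-α replicate 1. Endothelial markers summed to at most 0.16 FPKM, and of the adipocyte markers only Fabp4, at a mean of 16.3, was above 1 FPKM. In such bulk samples, fewer cells of a type and less RNA per cell cannot be told apart.

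**Figure D1:**
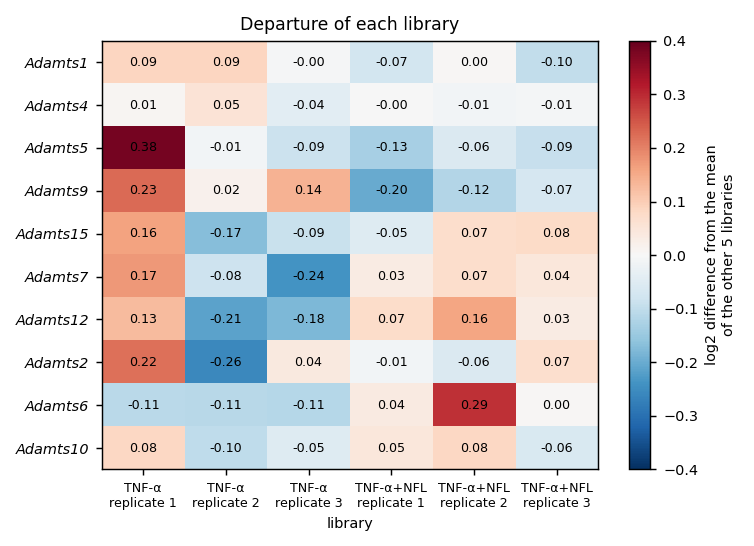
Each cell gives the log2 difference between a gene's CPM in one library (columns) and the mean of the other 5 libraries, for the 10 ADAMTS genes (rows). TNF-α replicate 1 is the highest library for 7 of 10 genes, most of all for Adamts5, at 0.38.

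Adamts5 (Entrez gene 304135), a main aggrecanase, had the highest level per length of the 10. Its CPM was 140.5, 111.9 and 107.2 in TNF-α replicates 1 to 3, and 104.2, 108.9 and 106.8 in the TNF-α+NFL replicates. A single TNF-α library was high, and the other 5 lay within a narrow band, so the groups overlapped. Means were 119.9 ± 18.05 (SD, n = 3) and 107 ± 2.33 (SD, n = 3), a log2 fold change of -0.17 (95% interval -0.43 to 0.089, adjusted p = 0.65 in edgeR). Without TNF-α replicate 1 it was -0.038 (95% interval -0.12 to 0.044), and without TNF-α replicate 3 it was -0.24 (95% interval -0.45 to -0.030, adjusted p = 0.45).

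Adamts4 (Entrez gene 66015), the other main aggrecanase, was the least variable of the 10. Its CPM was 11.7, 12.05 and 11.4 in the TNF-α replicates and 11.6, 11.6 and 11.6 in the TNF-α+NFL replicates. The TNF-α+NFL values lay inside the range of the TNF-α values. The log2 fold change was -0.013 (95% interval -0.18 to 0.15, adjusted p = 0.97 from the same test), from 224 to 238 estimated counts per library. The FPKM of Adamts5 was 14.4, 11.2 and 11.3 times that of Adamts4 in the TNF-α replicates and 10.7, 11.3 and 11.1 times in the TNF-α+NFL replicates.

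Adamts1 (Entrez gene 79252), which cuts aggrecan and versican, was at a CPM of 142, 142 and 135 in the TNF-α replicates and 129.9, 136 and 128 in the TNF-α+NFL replicates. Its groups touched through TNF-α replicate 3 and TNF-α+NFL replicate 2. The log2 fold change was -0.093 (95% interval -0.18 to -0.0032, adjusted p = 0.43 from the same test). Its unadjusted p of 0.043 compares with an exact permutation test (two-sided) of the 6 CPM values that gave p = 0.20, where 0.10 is the smallest that 3 samples against 3 allow.

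Adamts9 (Entrez gene 312566), a versican- and aggrecan-cutting relative, was the weakest of the 10. Its CPM was 4.92, 4.302 and 4.65 in the TNF-α replicates and 3.73, 3.94 and 4.07 in the TNF-α+NFL replicates, so the groups did not overlap. The log2 fold change of -0.24 (95% interval -0.52 to 0.043, adjusted p = 0.55) did not pass the test at 73 to 94 estimated counts per library, and on the log2(FPKM + 1) scale, which shrinks the change of a low gene, it was -0.070. Adamts15 (Entrez gene 300474), a further aggrecan- and versican-cutting member, was at a CPM of 78.8, 65.0 and 68.2, and then at 69.7, 74.8 and 75.1, in the same order. TNF-α replicate 1 was again the highest library, and the log2 fold change was 0.051 (95% interval -0.095 to 0.198, adjusted p = 0.85). Without TNF-α replicate 1 it was 0.14 (adjusted p = 0.079 in edgeR), and without TNF-α replicate 2 it was -0.0052.

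**Figure D2:**
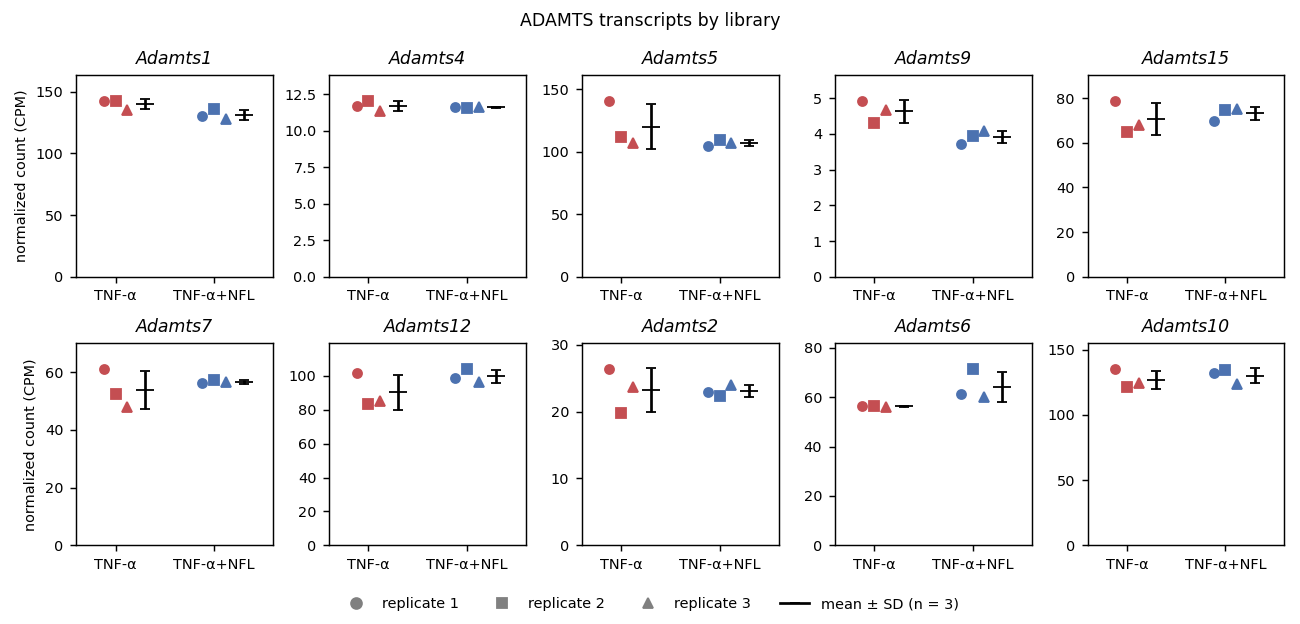
CPM of each of the 10 genes (one panel each, vertical axis from 0) in the 3 libraries of each labelled group, with the mean ± SD (n = 3) beside the points. The groups overlap in 8 of the 10 panels; Adamts6 and Adamts9 are the panels where they do not.

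The COMP-degrading pair, Adamts7 and Adamts12, passed the test or not depending on which TNF-α libraries entered the fit. Adamts12 (Entrez gene 294809) was at a CPM of 101.9, 83.6 and 85.2 in the TNF-α replicates and 98.8, 104 and 96.5 in the TNF-α+NFL replicates. TNF-α replicate 1 lay among the TNF-α+NFL libraries, and the other TNF-α libraries lay below them. With all 6 libraries the log2 fold change was 0.14 (95% interval -0.017 to 0.30, adjusted p = 0.52 in edgeR), and without TNF-α replicate 1 it was 0.24 (95% interval 0.15 to 0.33, adjusted p = 0.0011). Without TNF-α replicate 3 it was 0.11 (adjusted p = 0.75). Adamts7 (Entrez gene 315879) was at a CPM of 60.9, 52.5 and 47.9 in the TNF-α replicates and 56.1, 57.4 and 56.5 in the TNF-α+NFL replicates. In CPM, its TNF-α libraries spread on both sides of the tight TNF-α+NFL values. In FPKM, every TNF-α+NFL library (11.88, 11.73 and 11.5) lay above every TNF-α library (11.39, 10.57 and 9.97). With limma on log2(FPKM + 1), the log2 fold change of Adamts7 was 0.13 (adjusted p = 0.51). In edgeR it was 0.076 (95% interval -0.090 to 0.24, adjusted p = 0.79) with all libraries. Without TNF-α replicate 3 it was 0.0021 (adjusted p = 0.996), but without TNF-α replicate 1 it was 0.18 (95% interval 0.075 to 0.28, adjusted p = 0.031). These were the only members called without that library, 2 of 10 and both higher, beside 7.08% of all genes in that fit (3.52% higher and 3.56% lower). Their substrate gene Comp was at a CPM of 10.2 to 11.5 under TNF-α and 9.27 to 11.96 under TNF-α+NFL (log2 fold change -0.078, adjusted p = 0.85, or -0.036 without TNF-α replicate 1).

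Adamts2 (Entrez gene 287899), which removes the N-propeptide of procollagens, was at a CPM of 26.3, 19.8 and 23.6 in the TNF-α replicates and 22.9, 22.3 and 23.98 in the TNF-α+NFL replicates. The TNF-α libraries enclosed all 3 of the others. Its log2 fold change was -0.0093 (95% interval -0.21 to 0.19, adjusted p = 0.98 from the same test). Its substrates include the chains Col1a1, Col1a2, Col2a1 and Col3a1, of which 0 of 4 were called. Col2a1, the collagen chain that defines cartilage, did not overlap between the groups, at a CPM of 19.9, 17.9 and 20.2 and then of 21.1, 23.2 and 23.7, but its log2 fold change of 0.23 had an adjusted p of 0.22.

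Adamts6 and Adamts10 form a related pair that acts around fibrillin microfibrils, and of the 4 microfibril genes listed 0 of 4 were called. Adamts6 (Entrez gene 361886) had the smallest p of the 10. Its CPM was 56.4, 56.3 and 56.2 in the TNF-α replicates and 61.3, 71.2 and 60.2 in the TNF-α+NFL replicates. Every TNF-α+NFL library lay above every TNF-α library, and replicate 2 was the highest by far. The log2 fold change was 0.19 (95% interval 0.061 to 0.32, adjusted p = 0.22 in edgeR), or 0.11 (adjusted p = 0.65) without TNF-α+NFL replicate 2. The exact permutation test (two-sided) gave p = 0.10, the smallest it can give here. Adamts10 (Entrez gene 314655) was at a CPM of 134.9, 121 and 124.8, and then at 132, 134.7 and 124.0, with a log2 fold change of 0.037 (95% interval -0.069 to 0.14, adjusted p = 0.85). Its groups overlapped almost fully. In CPM, the groups failed to overlap for 1 higher gene of the 10, Adamts6, and 1 lower gene, Adamts9. Of all genes, 16.8% were separated in this way (8.66% higher and 8.17% lower).

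**Figure D3:**
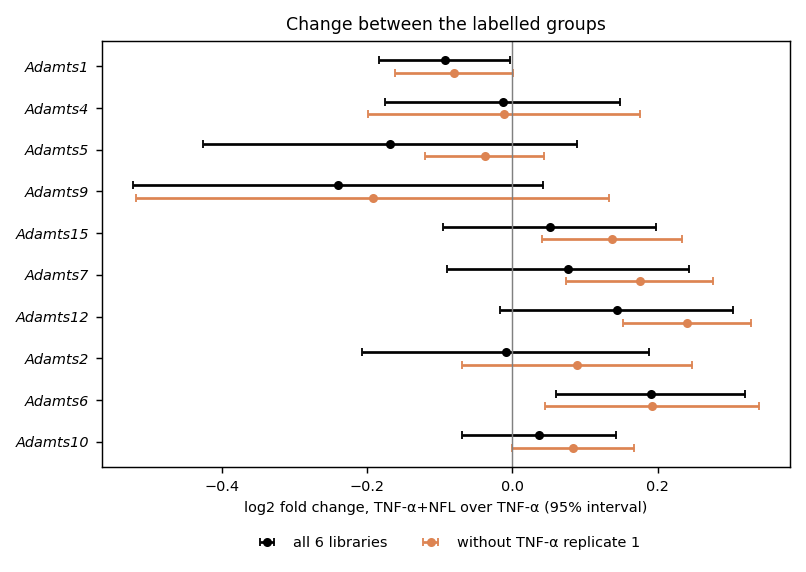
Log2 fold change of the 10 genes (horizontal axis, TNF-α+NFL over TNF-α as labelled) with 95% intervals from edgeR's quasi-likelihood fit, with all 6 libraries (black) and without TNF-α replicate 1 (orange). With all libraries the interval leaves out 0 for Adamts1 and Adamts6 before adjustment. Leaving out TNF-α replicate 1 moves Adamts5 towards 0 and Adamts2, Adamts7, Adamts10, Adamts12 and Adamts15 upwards, and the sign of Adamts2 turns.

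The intervals show what size of change the libraries could hold. For Adamts4 they ran from a change of -11.4% to 10.9%, and for Adamts10 from -4.65% to 10.4%. For Adamts5 they ran from -25.6% to 6.36%, and for Adamts9 from -30.4% to 3.01%. A change of 2-fold lay outside the interval of each of the 10 genes.

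Compared per length, as FPKM, the 10 genes fell into 3 levels that held in both groups. Adamts5, Adamts10 and Adamts1 were the highest, at means over the 6 libraries of 40.4 ± 4.60, 33.3 ± 1.41 and 30.7 ± 1.32 (SD, n = 6). Adamts5 lay above Adamts10 in each library without overlap, whereas the ranges of Adamts10 and Adamts1 overlapped. Adamts15, Adamts7, Adamts12 and Adamts6 followed at 11.7, 11.2, 10.9 and 10.7, and each overlapped its neighbour in this order. Adamts2 at 5.06, Adamts4 at 3.47 and Adamts9 at 0.51 were lower, and no ranges overlapped there.

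Of the other 9 ADAMTS proteinase genes, 2 passed the filter on low counts and 0 of 2 were called. Adamts8, a relative of the aggrecanases, lay below Adamts5, Adamts10 and Adamts1 in every library and above the other members, with a TNF-α mean of 27.55 ± 1.147 FPKM (SD, n = 3) and a TNF-α+NFL mean of 26.4 ± 2.49 FPKM (SD, n = 3). Its log2 fold change was -0.067 (adjusted p = 0.79). Adamts14, a procollagen N-proteinase like Adamts2, had a log2 fold change of 0.175 (adjusted p = 0.62). Without TNF-α replicate 1, Adamts8 was at -0.026 and Adamts14 at 0.29 (adjusted p = 0.079). Adamts16 and Adamts18 had 0 counts in all 6 libraries, which allows up to 3 counts each, or a CPM of 0.152 to 0.157. Of the summed FPKM of the 19 proteinase genes, Adamts5 held 22.5% ± 1.71 (SD, n = 3) under TNF-α and 20.4% ± 0.550 (SD, n = 3) under TNF-α+NFL, and Adamts4 held 1.85% ± 0.134 (SD, n = 3) and 1.85% ± 0.0704 (SD, n = 3). The sum itself was 188.9 ± 12.01 (SD, n = 3) and 187 ± 6.66 (SD, n = 3). The shares of Adamts5 and Adamts9 were lower in every TNF-α+NFL library than in any TNF-α library. Those of Adamts6, Adamts7 and Adamts12 were higher in the same way, and the other members' shares overlapped. The shares were not tested.

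**Figure D4:**
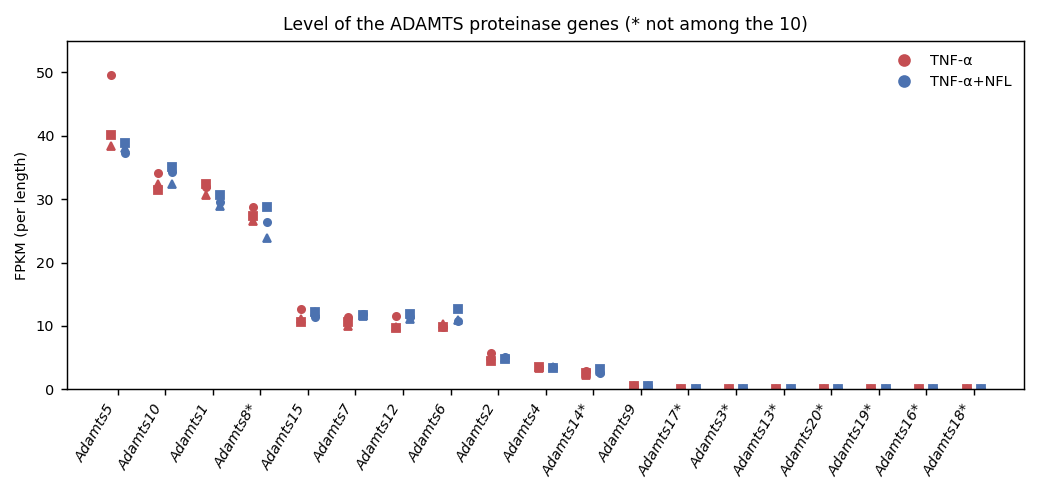
FPKM of the 19 ADAMTS proteinase genes (horizontal axis, ordered by their mean; * marks the 9 outside the 10 genes followed) in each library, coloured by labelled group and shaped by replicate. Adamts5, Adamts10, Adamts1 and Adamts8 stand above 20 FPKM, Adamts4 lies near 3.47, and 7 genes lie near 0.

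The ADAMTS-like proteins share the non-catalytic domains but have no proteinase domain, and 0 of the 6 tested of 7 listed were called. Adamtsl1 was at a CPM of 2.15, 2.33 and 2.23 in the TNF-α replicates and 1.33, 1.95 and 1.58 in the TNF-α+NFL replicates. Those groups did not overlap, but the log2 fold change of -0.46 had an adjusted p of 0.41 at this low level. Adamtsl4, named after its values were seen, had a log2 fold change of 0.25 (adjusted p = 0.26) and was called, at 0.34 (adjusted p = 0.00055), without TNF-α replicate 1.

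Of the 6 tested proteoglycan and COMP substrates, 0 were called. Aggrecan (Acan) was at a CPM of 20.8, 17.9 and 16.4 in the TNF-α replicates and 17.9, 21.4 and 19.3 in the TNF-α+NFL replicates, and the groups overlapped (log2 fold change 0.090, 95% interval -0.12 to 0.30, adjusted p = 0.80). Without TNF-α replicate 1 it was 0.19 (adjusted p = 0.20). Versican (Vcan), the related proteoglycan of loose connective tissue, was at 761, 682 and 633 and at 642, 675 and 633 (log2 fold change -0.090, adjusted p = 0.66, or -0.015 without TNF-α replicate 1). Per length, versican RNA was far more abundant, at a mean FPKM of 68.7 against 2.69 for aggrecan.

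Genes that activate, block or clear the proteinases were also tested, and 0 of 12 were called. The convertases Furin and Pcsk6 had log2 fold changes of -0.032 (adjusted p = 0.86) and 0.11 (adjusted p = 0.63). Without TNF-α replicate 1 they were 0.0026 and 0.16, so the sign of Furin turned. Timp3, the inhibitor with the strongest known action on aggrecanases, was at a CPM of 12.4, 13.5 and 13.95 and then of 14.1, 13.3 and 14.4 (log2 fold change 0.068, adjusted p = 0.82, or 0.023 without TNF-α replicate 1). Its FPKM was 0.063 to 0.086 times that of Adamts5 in the TNF-α group and 0.083 to 0.093 times in the TNF-α+NFL group, and the lowest ratio came from TNF-α replicate 1, where Adamts5 was high. Lrp1, the uptake receptor, was at a CPM of 3077 in TNF-α replicate 1 and at 2047 to 2260 in the other 5 libraries (log2 fold change -0.14, adjusted p = 0.86), and without TNF-α replicate 1 its log2 fold change was 0.060.

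In the same list, Timp1, an inhibitor of many matrix metalloproteinases, was at a CPM of 514, 559 and 529 in the TNF-α replicates and 468, 473 and 468 in the TNF-α+NFL replicates. The groups did not overlap, and the log2 fold change of -0.185 lay just outside the threshold (adjusted p = 0.060). Sdc4, which encodes the proteoglycan syndecan-4, did not overlap either, at 179, 183 and 176 and at 195.2, 195.0 and 207 (log2 fold change 0.15, adjusted p = 0.14). Of the 9 tested transcription factors linked to aggrecanase genes, 0 were called. For Jun, Fos and Sox4 the libraries of one group all lay on one side of the other, at fitted changes of -0.12 (adjusted p = 0.33), 0.22 (adjusted p = 0.31) and 0.12 (adjusted p = 0.23) on the log2 scale. Rela and Nfkb1, which encode NF-κB subunits, had log2 fold changes of 0.037 and 0.0096, and Runx2 of 0.044. All 3 overlapped between the groups, and without TNF-α replicate 1 they were at 0.086, 0.033 and 0.070. Without TNF-α replicate 1, where 938 of 13250 genes (7.08%) were called against 81 with all libraries, the called genes were Fmod of 6 substrates, Col1a1 of 4 procollagens, Timp1 and Sdc4 of 12 activators and inhibitors, and Sox4 of 9 transcription factors. All but Timp1 were higher in that fit, beside 3.52% of all genes.

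**Figure D5:**
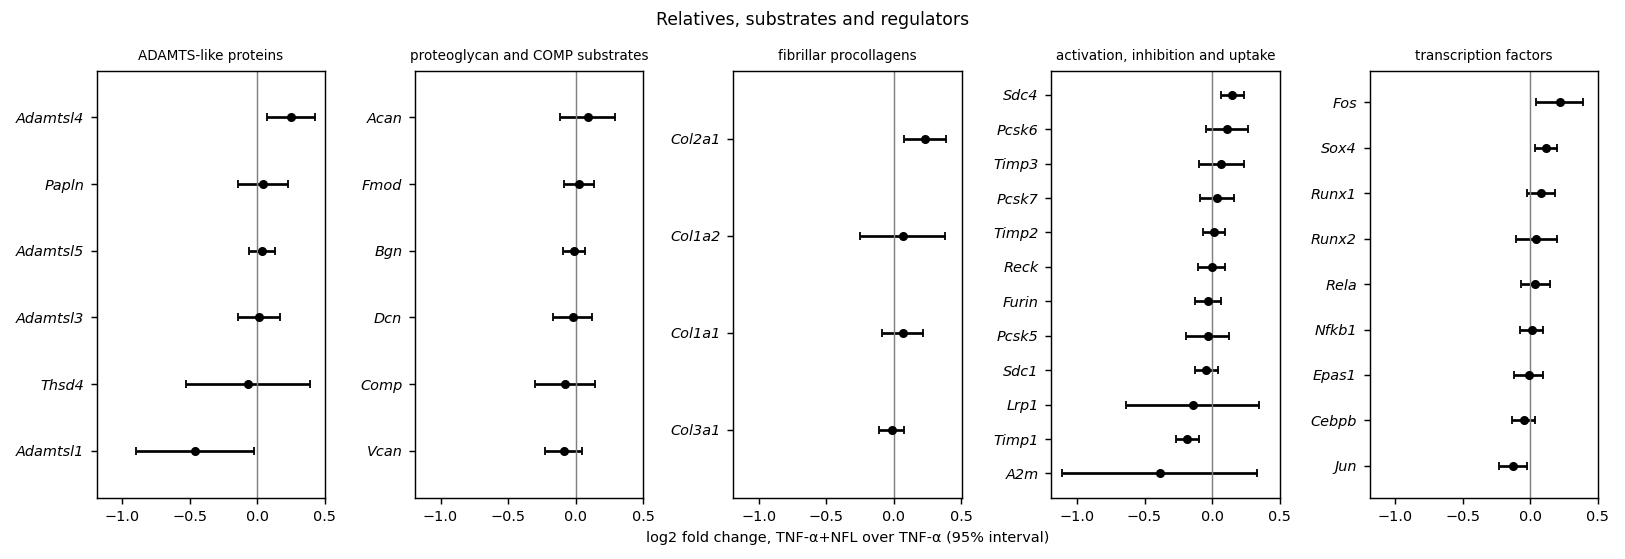
Log2 fold change (horizontal axis, TNF-α+NFL over TNF-α as labelled, with 95% intervals from edgeR's quasi-likelihood fit) of the tested ADAMTS-like genes, substrates, procollagens, activators and inhibitors, and transcription factors. Genes lie on both sides of 0 in each panel, and 0 passed an adjusted p of 0.05.

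Promoter sequences were read for 8 of the 10 genes from RefSeq (GRCr8), as the 250 bases before the gene start. The set of promoters used here held no entry for Adamts5 or Adamts15. The 3 printed here are the main aggrecanase Adamts4 and the pair that holds a match to the consensus NF-κB site, Adamts9 and Adamts12. Capitals mark that match and, in Adamts9, an overlapping GC box (GGGCGG, read on the other strand).
Adamts4, chr13:86202761-86203010 (GRCr8, plus strand): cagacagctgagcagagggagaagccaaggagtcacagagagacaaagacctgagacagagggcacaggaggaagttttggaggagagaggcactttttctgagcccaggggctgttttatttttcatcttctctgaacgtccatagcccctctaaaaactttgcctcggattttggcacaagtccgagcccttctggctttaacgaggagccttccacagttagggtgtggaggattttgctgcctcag
Adamts9, chr4:127019877-127020126 (GRCr8, minus strand): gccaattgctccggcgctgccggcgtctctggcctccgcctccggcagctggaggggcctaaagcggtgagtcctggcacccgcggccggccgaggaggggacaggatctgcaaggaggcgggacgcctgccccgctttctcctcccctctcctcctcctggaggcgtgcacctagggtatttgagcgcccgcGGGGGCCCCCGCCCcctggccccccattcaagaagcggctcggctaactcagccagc
Adamts12, chr2:61759737-61759986 (GRCr8, plus strand): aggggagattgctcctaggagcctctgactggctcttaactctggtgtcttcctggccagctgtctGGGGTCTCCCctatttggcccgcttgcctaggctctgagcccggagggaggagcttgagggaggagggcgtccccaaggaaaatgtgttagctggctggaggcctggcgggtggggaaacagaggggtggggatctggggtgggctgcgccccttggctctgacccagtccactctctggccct

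The searches covered both strands. The consensus NF-κB site was found in 2 of the 8 promoters and in 6.33% of all 33469 promoters of the same length, at bases -57 to -48 from the start in Adamts9 and -184 to -175 in Adamts12. Adamts9 and Adamts12 had fitted changes of opposite sign, -0.24 and 0.14, neither of which passed the test. An AP-1 site (TGANTCA) was found in 0 of 8 and in 6.34% of all, a RUNX site (TGTGGT) in 0 of 8 and in 14.5%, a GC box in 4 of 8 and in 30.5%, and a TATA box (TATAAA) in 3 of 8 and in 12.9%. The window of Adamts4 held none of the 5. A match is a run of letters, not a measured site of binding. The windows differed in base composition, from 36.0% G and C in Adamts6 to 75.6% in Adamts2, with a median of 51.2% over all promoters.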

How the data were processed

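RNA-seq libraries of oligo(dT)-selected RNA were sequenced single-end, on a BGIseq platform per the labels. For every gene, the authors deposited an estimated count, without normalization, besides FPKM and TPM, both corrected for length and depth. The submitters' processing notes list HISAT2 2.0.4, Bowtie2 2.2.5, RSEM 1.2.12 and the build Rnor_6.0, without roles. Estimated counts were rounded and tested in R 4.3.3 by the robust quasi-likelihood test of edgeR 4.0.16 (two-sided; filterByExpr and TMM; Benjamini-Hochberg adjustment over 13250 genes), since the study's RNA-seq methods name FPKM but no test. The 95% intervals used the standard error implied by F and the t quantile at the fit's degrees of freedom. TPM values entered no test, and FPKM served for levels per length and 1 alternative. Whether the counting used strand is not given in the sources used here, so antisense reads cannot be told apart. Alternatives used DESeq2 1.42.0, limma 3.58.1, other filters, a replicate block, removal of a length trend and leaving out each library. The labels' replicate numbers do not state a pairing. Where nothing says that replicates came from separate animals, p-values measure only the spread between these samples. The floor of 3 counts covers counting error only.

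The members, gene lists and tests were chosen with earlier results of these data known. Genes outside the 10 were named if they passed an adjusted p of 0.05, if their groups did not overlap at an unadjusted p under 0.05, or if they were Acan, Vcan, Timp3, Furin, Pcsk6, Lrp1 or a family gene under 3 counts in every library; markers of cell types were named only for the check of the cells. Comp, Rela, Nfkb1, Runx2, Fmod, Adamts8, Adamts14 and Adamtsl4 were named outside this rule after their values were seen, as were the procollagen genes.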

Additional observations from a re-analysis of the deposited data

How the results depend on the processing

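The 10 genes kept 0 calls under limma-voom, DESeq2 (its Wald test, or its size factors in edgeR), limma on log2(FPKM + 1), both other filters and the removed length trend. A replicate block on the labels' numbers also gave 0 calls and turned no member's sign. Samples with the same number shared little deviation (correlations -0.037, -0.023 and 0.072). This cannot show whether they came from the same animal or culture. Leaving out 1 library gave 0 to 2 calls, the 2 being Adamts7 and Adamts12 without TNF-α replicate 1. Over all genes, calls were 81, against 125 with the DESeq2 Wald test, 6 with limma on log2(FPKM + 1), 132 without a filter, 34 with the replicate block, 223 with the length trend removed, and 3 to 938 with 1 library left out, the most without TNF-α replicate 1 and the fewest without TNF-α+NFL replicate 1. The cause was not tested.

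Leaving out 1 library moved the log2 fold change from -0.11 to 0.089 for Adamts2, from -0.032 to 0.0073 for Adamts4, from -0.24 to -0.038 for Adamts5, from 0.0021 to 0.18 for Adamts7, from 0.0045 to 0.084 for Adamts10, from 0.092 to 0.24 for Adamts12 and from -0.0052 to 0.14 for Adamts15. Adamts2 was at 0.00048 with limma-voom. With limma on log2(FPKM + 1), Adamts7 was at 0.13 and Adamts9 at -0.070. The 7 members other than Adamts2, Adamts4 and Adamts15 kept their sign in every fit run. Departures ran along transcript length: in the longest of 5 length classes the median was 0.068 for TNF-α replicate 1 against -0.090 for replicate 3, and the 10 genes lay at the 56.3 to 97.5 percentile of length. With that trend removed, Adamts1 was at -0.13 (adjusted p = 0.080 in edgeR), Adamts2 at -0.045, Adamts4 at -0.033, Adamts5 at -0.18, Adamts6 at 0.14, Adamts7 at 0.038, Adamts9 at -0.29, Adamts10 at 0.010, Adamts12 at 0.091 and Adamts15 at 0.0059.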
